A study of Mus musculus with 4 samples.

Results

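The insulin-like growth factor (IGF) axis was followed through 8 genes, Igf1, Igf1r and the binding protein genes Igfbp2, Igfbp3, Igfbp4, Igfbp5, Igfbp6 and Igfbp7, among 31806 gene names on the array. Members were the probes that carry one of these names and are no control spots, 13 of 39429 probes, whatever their signal. Total RNA came from mouse embryonic fibroblasts (MEFs), cultured cells from mid-gestation embryos of the C57BL/6J strain, in DMEM with serum at logarithmic growth and with no other treatment in the labels. Cyclin G1 and cyclin G2, encoded by Ccng1 and Ccng2, are related proteins that bring the phosphatase PP2A to its targets after DNA damage. The samples labelled G2KO (CycG2-/-) and its wild type (CycG2+/+, here WT-G2KO), and DKO (CycG1-/-CycG2-/-) and its wild type (here WT-DKO), were hybridised to 1 array each. All 4 arrays were on 1 slide, and each is named below by its label. With 1 culture and 1 array per group, no difference below has a replicate check or a test, and the labels do not say how many embryos a culture came from.

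IGF1 is a secreted growth factor that signals through the receptor tyrosine kinase IGF1R, insulin receptor substrates, PI3K and Akt, and fibroblasts are a local source of it. IGF binding proteins hold IGF1 and IGF2 outside the cell, and either keep them from the receptor or store them, until proteases such as PAPP-A or HTRA1 cut the binding protein. IGFBP7 binds IGFs weakly and is often called an IGFBP-related protein.

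Neighbouring genes of the family differed in how they varied between the arrays, so the promoters of 4 members are shown first. Igfbp2 and Igfbp5 lie next to each other on chromosome 1 and had their highest signals on different arrays. Igfbp4 and Igfbp6 lie on different chromosomes and were both lowest on WT-G2KO. The sequences are from RefSeq on GRCm38.p6, from 250 bases before to 50 bases after the annotated start. Capitals mark matches on either strand to one of 4 motifs. The box named for its G and C letters was searched as GGGCGG. For the site of the TATA-binding protein the letters were TATAAA. The E-box was searched in its palindromic form, CACGTG. A core of FOXO binding sites was searched as CAAAACA.
Igfbp2, chr1:72824230-72824529, plus strand: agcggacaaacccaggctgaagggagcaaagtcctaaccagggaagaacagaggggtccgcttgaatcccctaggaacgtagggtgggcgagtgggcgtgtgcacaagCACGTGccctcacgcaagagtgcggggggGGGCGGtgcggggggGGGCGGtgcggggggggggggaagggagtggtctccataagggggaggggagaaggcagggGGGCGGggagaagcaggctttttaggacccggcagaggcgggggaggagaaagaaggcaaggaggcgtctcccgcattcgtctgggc
Igfbp5, chr1:72874816-72875115, minus strand: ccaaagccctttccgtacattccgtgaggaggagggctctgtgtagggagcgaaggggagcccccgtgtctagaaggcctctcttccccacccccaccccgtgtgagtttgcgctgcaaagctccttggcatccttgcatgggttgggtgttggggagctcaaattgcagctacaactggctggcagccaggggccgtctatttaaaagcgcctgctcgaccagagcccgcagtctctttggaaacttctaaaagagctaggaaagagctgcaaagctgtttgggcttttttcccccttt
Igfbp4, chr11:99040994-99041293, plus strand: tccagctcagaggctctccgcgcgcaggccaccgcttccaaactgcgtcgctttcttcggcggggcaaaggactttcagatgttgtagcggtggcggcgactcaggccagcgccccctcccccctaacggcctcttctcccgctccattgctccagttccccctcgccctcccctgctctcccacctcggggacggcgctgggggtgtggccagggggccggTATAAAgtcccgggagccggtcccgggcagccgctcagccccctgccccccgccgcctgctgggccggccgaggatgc
Igfbp6, chr15:102143936-102144235, plus strand: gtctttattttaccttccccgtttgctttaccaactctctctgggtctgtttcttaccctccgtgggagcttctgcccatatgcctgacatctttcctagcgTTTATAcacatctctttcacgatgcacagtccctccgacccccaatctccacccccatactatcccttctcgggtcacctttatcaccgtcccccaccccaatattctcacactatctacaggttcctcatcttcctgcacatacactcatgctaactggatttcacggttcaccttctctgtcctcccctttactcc
The window shown for Igfbp2 held 3 matches to GGGCGG and 1 to CACGTG, which 35.7% and 7.15% of 32851 promoter windows hold at least once. A second annotated start of Igfbp2 has a window with 0 matches. The Igfbp5 window held none of the motifs searched. Igfbp4 and Igfbp6 each held 1 match to TATAAA, starting at base 223 and at base 103 of the 300 bases, and 13.6% of windows hold one. CAAAACA, held by 6.28% of windows, was in none of these 4. These matches describe the letters only and say nothing about binding.

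Levels are the signal of a probe divided by the 75th percentile of all probes on its array, and are compared between arrays for the same probe, never between genes. Of the 13 member probes, 10 were well above background on all 4 arrays. Of their 52 spots, 49 were well above background and 0 were flagged. The scanner software gave each of these spots an error of 10.0% to 13.9% of its signal. Between spots of a probe on the same array the median SD was 0.0752 to 0.122 on the log2 scale, and this leaves out the spread between cultures. A difference of at least 4-fold (a log2 ratio of 2) was counted. Where a probe was not well above background on an array, the lowest signal well above background there was used, or the probe's own if higher, and the ratio is written as "at least".

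The labels were checked on Ccng1, whose level was 1.98 on G2KO, 9.45 on WT-G2KO, 0.00685 on DKO and 1.66 on WT-DKO. Its signal was not well above background on DKO and at least 228-fold lower there than on WT-DKO. The Ccng2 probe read 0.0910, 0.104, 0.0619 and 0.0806 in the same order and did not separate the knockouts from the wild types, so it does not check the G2KO label. Whether that probe lies within the deleted part was not tested. The array labelled WT-G2KO stood apart. Of 11 fibroblast markers, 8 were well above background on it (Fap, Lum and Pdgfra were not) and all 11 on each of the others. Their summed level was 328 on G2KO, 223 on WT-G2KO, 307 on DKO and 408 on WT-DKO, and Col1a1 and Vim were highest on WT-G2KO. G2KO exceeded WT-G2KO at least 4-fold for 6 of the 11 (3.71% of all genes), and 0 were lower (2.02%). In DKO over WT-DKO, 4 of the 11 were at least 4-fold lower (Pdgfra, Pdgfrb, Postn and Thy1) and 1 was higher (Dcn). Over all genes, 4.03% were lower and 4.04% higher. The summed level of 4 smooth muscle markers was 42.6 on DKO and 214 to 362 elsewhere. Acta2 (29.6 on DKO, 133 on WT-DKO) and Tagln (11.6 and 132) carried this sum. Cnn1 read 1.41 on DKO and 1.25 on WT-DKO, and Myh11, dim on every array, was highest on DKO (0.0289). Of 5 chondrocyte or bone markers, 4 had a ratio in DKO over WT-DKO. Of these, 2 were at least 4-fold lower, Col2a1 (-7.13 on the log2 scale) and Sox9 (-2.64), and 0 were higher. The summed level of 6 neural progenitor markers was 45.3 on WT-G2KO and 1.31 to 2.14 elsewhere. Most of it came from Nes (28.0) and En2 (14.8). Sox2 (2.37) and Fabp7 (0.0705) were also highest on WT-G2KO, while Sox1 was lowest there (0.105) and Pax6 was not well above background. On WT-G2KO the Xist probes read 1.13 and 0.407, and they stayed dim on the other 3 arrays. The Y-linked Ddx3y was well above background on all but WT-G2KO. The study lists Xist as higher in G2KO MEFs, so the Xist signal goes against these labels. The study also lists the autosomal genes En2 and Sox2 as higher and Pdgfra as lower in G2KO MEFs, and each ran the other way here. By label, the log2 ratio of G2KO over WT-G2KO was -9.15 for En2, -8.49 or beyond for Sox2 and at least 7.93 for Pdgfra. Whether the labels G2KO and WT-G2KO were exchanged is not settled by these files. On DKO, 10 of 10 mesothelial markers were well above background, against 5 on G2KO and 3 on either WT, and their summed level was 150.0 against 0.662 to 1.58. The part of these markers in the results that follow was not tested, and in bulk RNA fewer cells of a type cannot be told apart from less RNA per cell.

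The array labelled G2KO was first compared with WT-G2KO, which by their labels differ in cyclin G2. Here 5 of 8 members lay at least 4-fold apart, against 5.73% of 22791 genes. Igfbp2, Igfbp4 and Igfbp6 were higher on the array labelled G2KO, as were 3.71% of all genes, and Igfbp3 and Igfbp5 were lower, as were 2.02%. These directions follow the sample labels, under which other genes that the study lists for this comparison, Xist among them, run opposite to its list. With the labels exchanged, the log2 ratio of Igfbp2 would be -8.30 and that of Igfbp3 6.63, and all others would turn as well. In DKO over WT-DKO, 3 of 8 members lay at least 4-fold apart, against 8.07% of 22881 genes. Igfbp3 was higher (4.04% of genes), and Igfbp2 and Igfbp5 were lower (4.03%). The arrays labelled WT were compared as well, to see how far preparations given the same genotype differ. There, 5 of 8 members lay at least 4-fold apart, against 7.39% of 22137 genes. Igfbp2, Igfbp4 and Igfbp6 were higher on WT-DKO (4.63%) and Igfbp3 and Igfbp5 were lower (2.76%). This comparison shares WT-G2KO with the first and WT-DKO with the second. By Xist and the Y-linked Ddx3y, WT-G2KO also differed from the other arrays in the sex of the embryos. In the comparisons that use WT-G2KO, embryo sex therefore cannot be told apart from the label. The median absolute log2 ratio of the 8 members was 5.43, 0.53 and 6.70 in the 3 comparisons, beside 0.44, 0.43 and 0.46 over all genes.

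**Figure D1:**
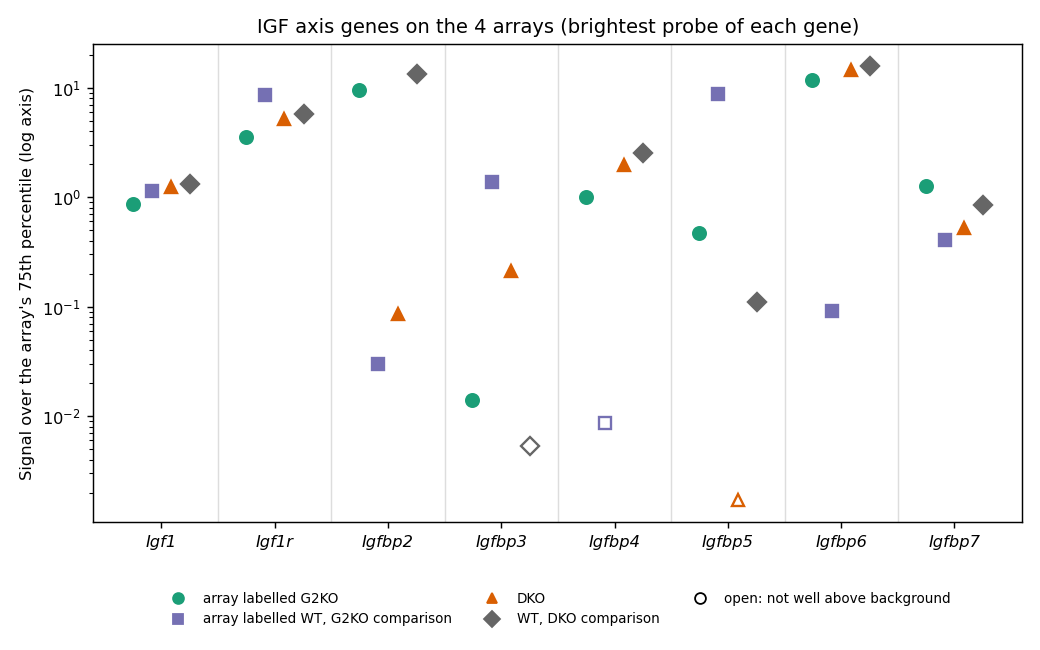
Signal over the 75th percentile of the array (log axis) for the brightest probe of each of the 8 genes on the 4 arrays, 1 point per array. Open symbols mark signals not well above background. The probes shown for Igf1, Igf1r and Igfbp7 stay within 1.52, 2.44 and 3.14-fold over the 4 arrays, while Igfbp2 to Igfbp6 each span at least 135-fold. The other Igf1 probes, not shown here, span 6.58 to 35.9-fold. Igfbp2 has a high and a low pair of arrays.

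The ligand Igf1 was measured by 5 probes on chromosome 10 (on mm9, as are all probe positions below), which did not behave alike. The probe annotated to transcript variant 2 (chr10:87378456-87378515) was the brightest by mean log2 signal over the 4 arrays. It read 0.865 on G2KO, 1.15 on WT-G2KO, 1.23 on DKO and 1.32 on WT-DKO. Its 4 signals lay within 1.52-fold, with log2 ratios of -0.41 for G2KO over WT-G2KO and -0.10 for DKO over WT-DKO. The gene counts above use this probe, although some of the other probes were brighter than it on WT-G2KO and DKO. The other 4 probes are annotated to transcript variant 1, and on each of them the order from high to low was DKO, WT-G2KO, WT-DKO, G2KO.

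Of these, the probe at chr10:87393581-87393640 read 0.120 on G2KO, 1.80 on WT-G2KO, 4.30 on DKO and 0.210 on WT-DKO. Both DKO and WT-G2KO were thus high and the other arrays low, over a 35.9-fold span. The log2 ratio was -3.91 for G2KO over WT-G2KO, 4.36 for DKO over WT-DKO and -3.10 for WT-DKO over WT-G2KO. The probe at chr10:87393561-87393620 shares 40 of its 60 bases with it and read 0.0870, 1.29, 2.75 and 0.143 in the same array order. It is therefore no separate measurement of the transcript. The probe at chr10:87399581-87399640, which overlaps neither, read 0.0452, 0.493, 1.25 and 0.237. Its log2 ratios were -3.45 for G2KO over WT-G2KO and 2.40 for DKO over WT-DKO. The probe at chr10:87395924-87395983 spanned less, 6.58-fold, with levels of 0.0418, 0.145, 0.275 and 0.0789. Its log2 ratios of -1.80 and 1.80 for the knockout comparisons fell short of 4-fold.

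With the median over the 5 probes in place of the brightest, Igf1 itself passed 4-fold in both knockout comparisons (-3.45 and 2.40), and the number of members past it became 6 and 4 of 8. Whether the transcripts differ in their exons at these probes was not analysed here.

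**Figure D2:**
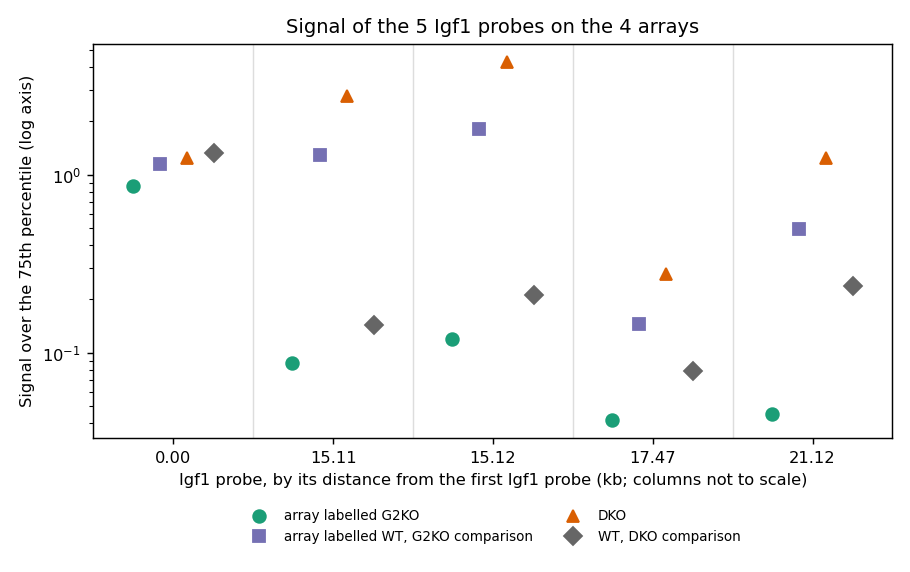
Signal of the 5 Igf1 probes over the 75th percentile (log axis) on the 4 arrays, ordered along the gene by the distance in kb from the first probe, 1 point per array. The first probe (transcript variant 2) lies within 1.52-fold on all arrays. On the other 4 probes DKO is highest and G2KO lowest.

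The receptor gene Igf1r (chr7:75378461-75378520) was above background on every array and spanned 2.44-fold. Its level was 3.55 on G2KO, 8.65 on WT-G2KO, 5.16 on DKO and 5.81 on WT-DKO. WT-G2KO was the highest and G2KO the lowest, and DKO lay close to its wild type. The log2 ratio was -1.29 for G2KO over WT-G2KO, beside a median of -0.17 over all genes, and 11.4% of genes lay at least as far apart. For DKO over WT-DKO it was -0.17, and 77.0% of genes lay at least as far apart.

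Igfbp2 encodes a binding protein with a preference for IGF2 that is abundant in fetal tissues. Its used probe (chr1:72898813-72898872) read 9.49 on G2KO, 0.0302 on WT-G2KO, 0.0857 on DKO and 13.5 on WT-DKO. The arrays thus formed a high pair, G2KO and WT-DKO, and a low pair, WT-G2KO and DKO, all well above background. G2KO was 314-fold above WT-G2KO (log2 ratio 8.30), DKO was 157-fold below WT-DKO (-7.30), and WT-DKO was 445-fold above WT-G2KO (8.80). Only 0.0658%, 0.306% and 0.0632% of genes lay at least as far apart in these comparisons. The other Igfbp2 probe (chr1:72898677-72898736) read 7.39, 0.0452, 0.0885 and 10.6, the same pairs of arrays, with log2 ratios of 7.35, -6.90 and 7.87.

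Igfbp5 encodes the binding protein made in bone, muscle and connective tissue, and is next to Igfbp2 on the chromosome. Its probe (chr1:72904829-72904888) read 0.471 on G2KO, 8.84 on WT-G2KO, 0.00170 on DKO and 0.111 on WT-DKO. WT-G2KO was the highest, and DKO was not well above background. G2KO was 18.8-fold below WT-G2KO (log2 ratio -4.23), and DKO was at least 15.1-fold below WT-DKO (-3.92). DKO was at least 1210-fold below WT-G2KO, so the 2 arrays that shared a low Igfbp2 signal held the extremes of Igfbp5. This Igfbp5 call in DKO was lost under another background correction, normexp, where the log2 ratio was -1.71.

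Igfbp3 encodes the main carrier of IGFs in the blood and is also made by fibroblasts. Its probe (chr11:7106594-7106653) read 0.0140 on G2KO, 1.39 on WT-G2KO, 0.213 on DKO and 0.00528 on WT-DKO. WT-G2KO and DKO were high, and WT-DKO was not well above background. G2KO was 99.0-fold below WT-G2KO (log2 ratio -6.63), while DKO was at least 20.7-fold above WT-DKO (4.37). WT-DKO was at least 135-fold below WT-G2KO. The arrays high for Igfbp3 were those low for Igfbp2, and the same arrays were high on the variant 1 probes of Igf1.

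Igfbp4 encodes the binding protein that PAPP-A cleaves. Its probe (chr11:98913334-98913393) read 1.002 on G2KO, 0.00872 on WT-G2KO, 1.98 on DKO and 2.53 on WT-DKO. WT-G2KO alone was not well above background. G2KO was at least 115-fold above it (log2 ratio 6.85) and WT-DKO at least 291-fold (8.18). DKO and WT-DKO lay close together, with a log2 ratio of -0.35, and 56.5% of genes lay at least as far apart.

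Igfbp6 encodes a binding protein with a strong preference for IGF2. Its probe (chr15:101979852-101979911) read 11.9 on G2KO, 0.0922 on WT-G2KO, 14.7 on DKO and 15.9 on WT-DKO. The pattern was that of Igfbp4, with WT-G2KO low and the other 3 arrays together. G2KO was 129-fold above WT-G2KO (log2 ratio 7.01) and WT-DKO 172-fold (7.43), and DKO over WT-DKO was -0.12 on the log2 scale. For Igfbp4 and Igfbp6 the difference between the arrays labelled WT was larger than that between either array labelled as a knockout and WT-DKO. Whether both arrays labelled WT were of that genotype rests on labels that are not settled. The fibroblast markers given above were also lower on WT-G2KO in part, with 7 of 11 at least 4-fold higher on WT-DKO and 0 lower. Over all genes, 4.63% were higher and 2.76% lower.

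Igfbp7 (chr5:77778271-77778330, transcript variant 1) encodes a secreted matrix-associated protein. Its level was 1.27 on G2KO, 0.406 on WT-G2KO, 0.520 on DKO and 0.848 on WT-DKO. No pair of arrays reached 4-fold, and the span was 3.14-fold. The log2 ratio was 1.65 for G2KO over WT-G2KO, -0.71 for DKO over WT-DKO and 1.06 for WT-DKO over WT-G2KO.

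**Figure D3:**
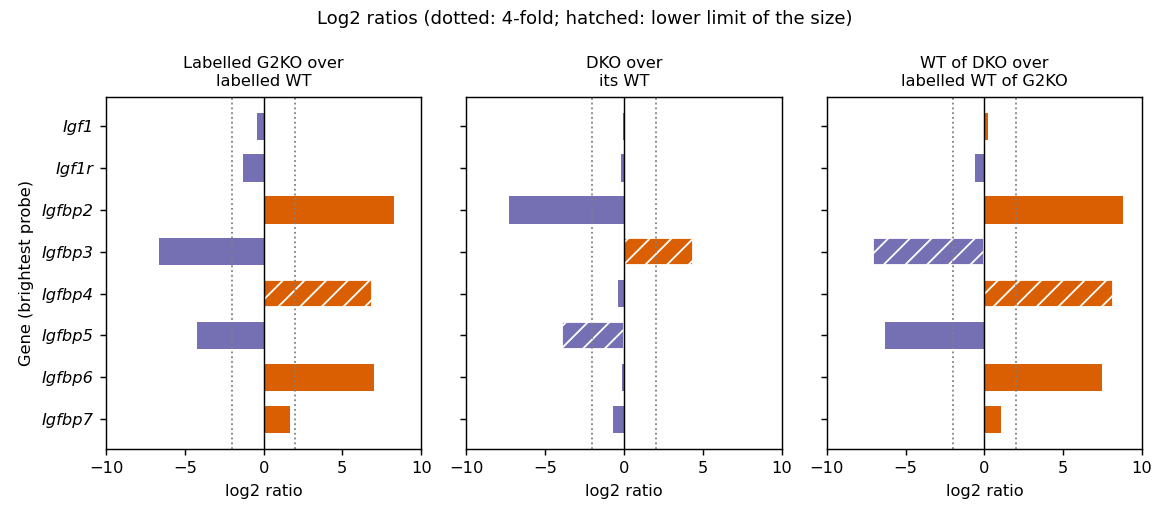
Log2 ratios of the brightest probe of each gene for the array labelled G2KO over WT-G2KO, DKO over WT-DKO, and WT-DKO over WT-G2KO, 1 array against 1 array. Dotted lines mark 4-fold and hatched bars are lower limits of the size. Igfbp2 reads 8.30, -7.30 and 8.80, and Igfbp6 reads 7.01, -0.12 and 7.43.

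Several of these directions differed with the reference array. The part of a possible exchange of the labels G2KO and WT-G2KO in this was not tested. Set against WT-DKO in place of WT-G2KO, the array labelled G2KO gave log2 ratios of -0.50 for Igfbp2, at least 0.45 for Igfbp3, -1.34 for Igfbp4, 2.09 for Igfbp5 and -0.42 for Igfbp6. All 5 had the opposite sign to the comparison with WT-G2KO, and Igfbp5 alone of the 8 members stayed past 4-fold. Set against WT-G2KO, DKO gave 1.504 for Igfbp2 and -2.71 for Igfbp3, again of opposite sign to the comparison with WT-DKO. Igfbp4 and Igfbp6, close to WT-DKO in that comparison, were at least 7.83 and 7.31 above WT-G2KO on the log2 scale.

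Genes with a pattern like that of a member were sought among 2271 genes well above background on all 4 arrays and spanning at least 4-fold, by the root mean square difference of their centred log2 levels over the 4 arrays. Igfbp2 and Igfbp6 met the same conditions. Nearest to Igfbp6 were Mmp13 (0.21), Mmp2 (0.32) and Plxdc2 (0.35). Mmp13 and Mmp2 encode matrix metalloproteinases, and Mmp2 read 18.7 on G2KO, 0.126 on WT-G2KO, 14.3 on DKO and 27.8 on WT-DKO. Nearest to Igfbp2 were Sparcl1 (0.79), Ptprz1 (0.86) and Gm567 (0.91), and Sparcl1 read 0.774, 0.00952, 0.0260 and 2.29. With 4 arrays, a likeness of this kind is a description.

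The other ligands and receptors of the axis were Igf2, Ins1, Ins2, Insr, Insrr and Igf2r. Of these, 2 of 6 were past 4-fold and higher in G2KO over WT-G2KO (3.71% of all genes), and 1 of the 5 with a ratio was lower in DKO than in WT-DKO (4.03%). Igf2, the fetal growth factor that IGFBP2 and IGFBP6 prefer, was low on all arrays and read 0.0984 on G2KO, 0.0228 on WT-G2KO, 0.0164 on DKO and 0.148 on WT-DKO. Its high and low pairs of arrays were those of Igfbp2, with log2 ratios of 2.11 for G2KO over WT-G2KO and -3.18 for DKO over WT-DKO. Insrr, an insulin receptor-related receptor, was above background on G2KO alone, at least 2.44 on the log2 scale over WT-G2KO. Igf2r, which clears IGF2 from the cell surface, read 5.26, 3.24, 2.66 and 3.91, and the insulin receptor gene Insr read 0.195, 0.231, 0.410 and 0.287. Neither reached 4-fold in any of the 3 comparisons.

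Among 9 carriers, proteases and protease inhibitors of the system, 4 of the 6 with a ratio were at least 4-fold lower in DKO than in WT-DKO, against 4.03% of all genes, and the median log2 ratio of the 6 was -2.74 beside 0.03 over all genes. None of these 6 was higher in that comparison. Fibroblast and smooth muscle markers were lower on DKO in part. Of 11 fibroblast markers, 4 were at least 4-fold lower than on WT-DKO (4.03% of all genes), with Pdgfra at -7.46 and Postn at -7.54 on the log2 scale. Dcn was higher (4.05), and Col1a1 (-0.03) and Vim (-0.045) hardly differed. Of 4 smooth muscle markers, 2 were at least 4-fold lower (4.03% of all genes), Tagln (-3.50) and Acta2 (-2.17). Cnn1 (0.17) and Myh11 (at least 1.40) were not lower. Mesothelial markers were higher. The part of all these markers in the count of carriers, proteases and inhibitors was not tested. Htra1, a secreted serine protease that cuts binding proteins, read 32.2 on G2KO, 15.5 on WT-G2KO, 5.81 on DKO and 45.8 on WT-DKO. DKO was the lowest array, with a log2 ratio of -2.98 to WT-DKO. Adam12, a metalloproteinase that cuts IGFBP3 and IGFBP5, was also lowest on DKO, at 0.0943 against 0.536 to 0.924 elsewhere (-2.51). The stanniocalcins inhibit PAPP-A and PAPP-A2. Stc2 read 0.633, 0.316, 0.0527 and 0.732, lowest on DKO with a log2 ratio of -3.80 to WT-DKO. Stc1 read 0.0997 on G2KO and 0.0632 on WT-DKO and was too dim on the other arrays, so that G2KO exceeded WT-G2KO by at least 3.80 and DKO lay below WT-DKO by at least 3.11 on the log2 scale.

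Pappa, which encodes PAPP-A, read 0.479 on G2KO, 1.13 on WT-G2KO, 0.106 on DKO and 0.328 on WT-DKO. DKO was again the lowest, though no comparison reached 4-fold (-1.24, -1.63 and -1.79). Pappa2 read 0.0260, 0.0132, 0.286 and 0.621, so that both arrays of the DKO comparison were higher than both of the G2KO comparison. Its log2 ratio was 5.56 for WT-DKO over WT-G2KO. These values rest on 1 probe, since the other Pappa2 probe was not well above background on any array. Igfbp1, the insulin-regulated binding protein of liver and the chromosomal neighbour of Igfbp3, was above background on the array labelled G2KO alone, at 0.0180. The acid-labile subunit gene Igfals and Igfbpl1 did not reach 4-fold in any comparison that gave a ratio.

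**Figure D4:**
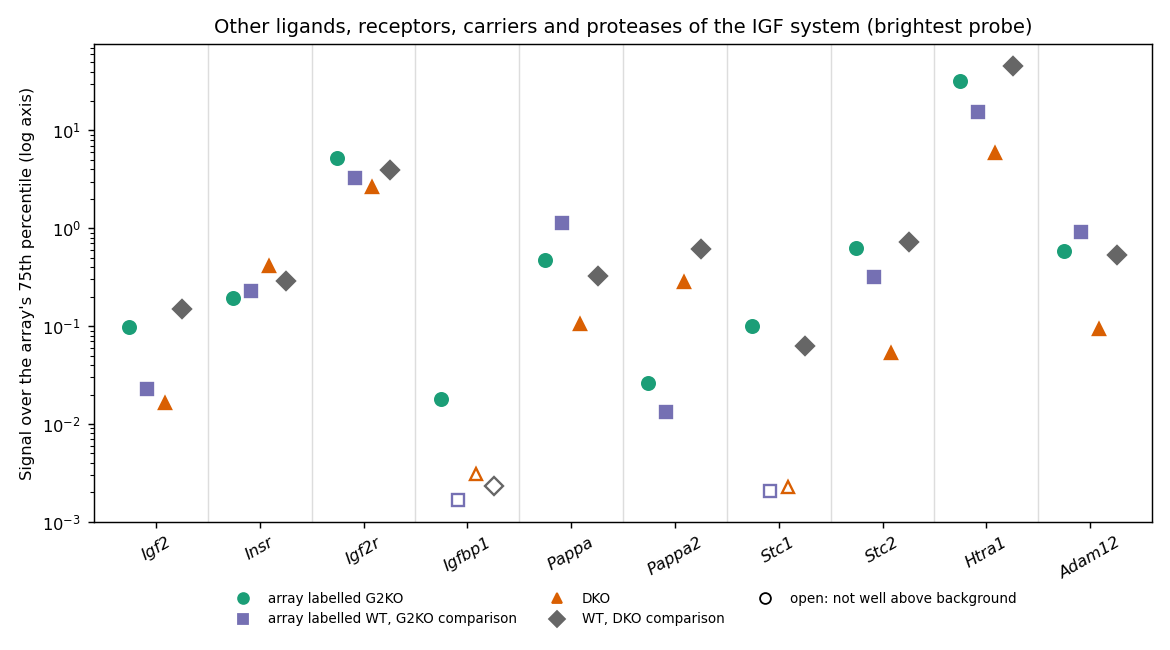
Signal over the 75th percentile (log axis) for 10 other genes of the IGF system on the 4 arrays, 1 point per array and the brightest probe of each gene. Open symbols mark signals not well above background. DKO is the lowest array for Igf2, Igf2r, Pappa, Stc2, Htra1 and Adam12.

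Downstream of the receptor, 36 genes for adaptors, PI3K, Akt and mTOR components were on the array. At least 4-fold apart were 1 of 36 in G2KO over WT-G2KO (5.73% of all genes), 0 of 35 with a ratio in DKO over WT-DKO (8.07%) and 2 of 35 between the arrays labelled WT (7.39%). These counts are no higher than the shares over all genes. The first was Grb10, an adaptor that restrains insulin and IGF1 receptors, which read 1.09 on G2KO, 0.224 on WT-G2KO, 0.621 on DKO and 1.73 on WT-DKO. Its log2 ratio was 2.28 for G2KO over WT-G2KO and 2.96 for WT-DKO over WT-G2KO. The insulin receptor substrate gene Irs1 was also lowest on WT-G2KO, at 0.964 against 3.16 to 5.77, and passed 4-fold between the arrays labelled WT (2.58). The IGF2 mRNA-binding protein genes Igf2bp1, Igf2bp2 and Igf2bp3 did not reach 4-fold in any comparison.

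Of 8 growth hormone axis genes, 0 lay at least 4-fold apart in G2KO over WT-G2KO (5.73% of all genes), 1 in DKO over WT-DKO (8.07%) and 2 between the arrays labelled WT (7.39%). In DKO, Socs1, a feedback inhibitor of cytokine receptors, was lower than in WT-DKO (0.160 against 0.866, log2 ratio -2.44). The feedback inhibitors Cish and Socs2 were higher on WT-DKO than on WT-G2KO, by 2.63 and 3.35 on the log2 scale. Of 15 genes known as FOXO targets, 13 had a ratio in each comparison and 1 lay at least 4-fold apart, near the shares of 5.73%, 8.07% and 7.39% over all genes. It was Fbxo32, a ubiquitin ligase gene, at 1.09 on G2KO, 0.120 on WT-G2KO, 0.122 on DKO and 1.31 on WT-DKO. Its pairs of arrays were those of Igfbp2 and Igf2, with log2 ratios of 3.18 for G2KO over WT-G2KO and -3.42 for DKO over WT-DKO.

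Genes flanking the members were read after their values were seen. Rpl37a, beside the Igfbp2 and Igfbp5 pair, read 110 on G2KO, 177 on WT-G2KO, 118 on DKO and 128 on WT-DKO, and Tns3, beside Igfbp3, read 11.0, 12.5, 10.9 and 12.1. Both lay within 4-fold on all arrays. Of the other flanking genes, 3 passed 4-fold in a comparison. Pmch, beside Igf1, was not well above background on WT-DKO, and the log2 ratio was at least 2.48 for DKO over WT-DKO and -2.76 or beyond for WT-DKO over WT-G2KO. Between the arrays labelled WT, Top2a beside Igfbp4 gave -2.08 and Soat2 beside Igfbp6 gave 2.06.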

How the data were processed

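Total RNA of 4 MEF cultures was measured on Agilent whole mouse genome arrays in 1 colour (Cy3), 1 array per group, on 1 slide. The methods of the study describe dye-swapped arrays for G2KO, whereas the labels give a single colour for all 4. The authors extracted signal intensity per spot with Feature Extraction (10.7.3.1 per the file headers, 10.5.1.1 in the submitters' processing notes), corrected for background and not scaled between arrays. The deposited value table holds the same intensity for every spot.

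Flagged spots (107 to 140 of 43020 per array) were left out. Intensities were divided by the 75th percentile of the array (2234, 1586, 1777 and 1877 for G2KO, WT-G2KO, DKO and WT-DKO), and spots of a probe were averaged as log2 values. On each array, 65.0% to 72.2% of probes were well above background and no spot was saturated. A gene is its brightest probe, by mean log2 signal. Probe positions are those of the files (mm9). Gene names were set against RefSeq on GRCm38.p6, where 8 of 9 member transcripts matched. The transcript without a match was that of the variant 2 probe used for Igf1. Members and lists were chosen with earlier results of these data known. Genes named beyond the members are those of the pathway lists that passed 4-fold or are ligands, receptors, carriers or proteases, and the 3 nearest in pattern. Alternatives were normexp (offset 50) and quantile normalization in limma 3.58.1 (R 4.3.3), median and no scaling, other filters, thresholds, probes and reference arrays. Python 3.11.15, numpy 2.4.6 and pandas 2.3.3 were used. The calculation of ratios was run on simulated shifts of bright probes. That run does not cover the "at least" ratios or the spread between cultures. The number of arrays limits the precision.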

Additional observations from a re-analysis of the deposited data

Results flagged for a closer look

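By the sample labels, Igfbp2 and Igfbp3 each differed in opposite directions in the knockout comparisons. The log2 ratio of Igfbp2 was 8.30 for the array labelled G2KO over WT-G2KO and -7.30 for DKO over WT-DKO. For Igfbp3 it was -6.63 for the array labelled G2KO over WT-G2KO and at least 4.37 for DKO over WT-DKO. The difference was not tested, since each comparison has 1 array against 1 array. It also rests on the labels of the G2KO comparison. With these exchanged, Igfbp2 would read -8.30 and -7.30, and Igfbp3 6.63 and at least 4.37, the same direction in both comparisons.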

How the results depend on the processing

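With each comparison's own WT array, 163 log2 ratios of members were recomputed under the other settings, of which 148 moved by less than 1.5-fold and 15 moved further. Of the ratios past 4-fold as reported, 0 changed sign. Igf1 went from -0.10 to 2.40 in DKO over WT-DKO with the median over its probes. With only probes well above background on both arrays, the number of members at least 4-fold apart was 1 in DKO over WT-DKO and 3 in WT-DKO over WT-G2KO. These lower counts follow from the filter, which leaves out Igfbp3, Igfbp4 or Igfbp5. Over WT-DKO, the array labelled G2KO had 1 member past 4-fold, and its log2 ratios turned to -0.50 (Igfbp2), at least 0.45 (Igfbp3), -1.34 (Igfbp4), 2.09 (Igfbp5) and -0.42 (Igfbp6). Over WT-G2KO, DKO turned to 1.504 (Igfbp2) and -2.71 (Igfbp3), and the cause was not tested. Each other Igf1 probe was tried as an alternative chosen after seeing the data, with the values given above. Without scaling the median log2 ratio of all genes in G2KO over WT-G2KO moved from -0.17 to 0.33. Normexp gave smaller ratios for dim probes, such as 4.49 for Igfbp4 in G2KO over WT-G2KO. No paired analysis was possible because each group has 1 array. For the same reason no array of a comparison could be left out of it.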
